A study of Mus musculus with 18 samples.

Results

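Glutathione S-transferases (GSTs) are enzymes that join the tripeptide glutathione to reactive and electrophilic compounds, which are then exported from the cell and processed to mercapturic acids, largely in the proximal tubule of the kidney. The cytosolic GSTs fall into classes named by Greek letters, among them Alpha (Gsta), Mu (Gstm), Pi (Gstp) and Theta (Gstt). Gstk1 encodes the Kappa class enzyme of mitochondria and peroxisomes, and Mgst1 encodes a membrane-bound microsomal GST that also reduces lipid hydroperoxides. The 10 GST genes described here were chosen by name, as members of the family other than Gstm2: Gstm1, Gstm4, Gstm5, Gstm6, Gstm7, Gsta3, Gstt2, Gstk1, Gstp1 and Mgst1. They were read by 15 of the 46632 probes in the table of B6 and NZW mice.

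Kidney cortex RNA was hybridised to Illumina bead arrays from 5 strains of mice, 3 mice per strain, all 2 months old and all challenged with antibody to the glomerular basement membrane (anti-GBM). B6 and BALB/c are strains resistant to the nephritis that follows this challenge, and NZW, DBA1 and 129/svj are sensitive strains. No unchallenged mouse was among the samples, so every difference is between strains after challenge. A repeat array was run for mouse 1 of the strains BALB/c, DBA1 and 129/svj, which makes 18 arrays of 15 mice. B6 and NZW form 1 deposited table and the other strains a second one, so the limma comparisons set strains against each other only within a table. Levels set side by side across the tables rest on their joint normalization. The arrays had 30.5 to 36.4% of probes detected above background (detection p at or below 0.05). With 3 mice in a strain, precision is limited by their number. The labelled tissue, cortex, was checked with proximal tubule markers: 17 of 19 probes of its markers were detected in each B6 and NZW mouse.

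Only 4 of the 15 probes could be followed through all 5 strains: 1 probe each of Mgst1, Gstm7, Gsta3 and Gstt2. The second table names its rows by search key and not by gene symbol. Gsta3, Gstm7 and Gstt2 were matched by that key, and Mgst1 by the study's own gene table together with its symbol. The search keys of the Mgst1 rows differ, so its pairing rests on the name, and its rows in the separate tables may be different probes of the gene. 9 probes had no counterpart and were read in B6 and NZW only. The 2 Gstm1 probes shared 1 key with a single row, which was detected on none of the 12 arrays of the second table, with signals of 67.1 to 113 against array medians of 118 to 152. One of these, Gstm1 probe ILMN_2626492, was also detected in 0 of 6 B6 and NZW mice, and was not tested. The remaining 14 probes passed the filter of detection in at least 3 mice, and every one of the 10 genes kept at least 1 probe. Levels below are log2 normalized intensities, which depend on the probe and were not compared between probes.

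For 3 of the genes a stretch of the reference promoter is shown here, with the match of a motif search in the promoter windows. RefSeq windows (GRCm38.p6, 250 bases before to 50 after the start) were held for 9 of the 10 genes, in 15 windows. They were searched on both strands for TGACNNNGC, the core of the antioxidant response element through which the factor NRF2 acts on GST genes. It matched in 4 genes, Mgst1, Gstm7, Gsta3 and Gstm5, in 1 window each, and 12.4% of all 32851 promoter windows hold a match. Stretches of 60 bases are given 5′ to 3′ on the strand of the gene, with the match in capitals, from chr6:138140445-138140504 (plus strand, Mgst1), chr1:21240438-21240497 (plus strand, Gsta3) and chr3:107895786-107895845 (plus strand, Gstm5).
Mgst1: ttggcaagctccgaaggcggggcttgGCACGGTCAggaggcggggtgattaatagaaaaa
Gsta3: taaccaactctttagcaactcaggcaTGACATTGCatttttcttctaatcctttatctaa
Gstm5: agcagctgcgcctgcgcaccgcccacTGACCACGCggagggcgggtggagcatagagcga
The Mgst1 match starts at -56 from the transcription start and lies on the opposite strand, while those of Gsta3 and Gstm5 lie on the strand of the gene, at -121 and -42. A match is a description of letters in the B6 reference and says nothing about binding. Among the genes with a match, Mgst1 was higher and Gstm7 lower in B6 than in NZW, while for Gsta3 and Gstm5 no difference passed the test. No NZW sequence was read, so a link between a match and a strain difference was not tested. The TATAAA letters of a TATA box were found in 3 genes, Gstm1, Gstm5 and Gstm7, in 1 window each, and 13.6% of all windows hold a match. The matches start at -30 in Gstm1, 40 in Gstm5 and -231 in Gstm7 from the transcription start.

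Mgst1 was bright in B6, BALB/c and DBA1 and at or near background in NZW and 129/svj, so its strain pattern crossed the division between resistant and sensitive strains. The deposited signals were 3334, 3494 and 2734 in the B6 mice and 104, 99.9 and 113 in the NZW mice. They were 3321, 2851 and 2365 in BALB/c and 3032, 2663 and 3438 in DBA1, against 148, 133 and 97.9 in 129/svj, by the first array of each mouse. The repeat arrays of mouse 1 gave 3369, 2851 and 110 in the same order of strains. Every mouse of the bright strains lay above every NZW and 129/svj mouse. These groups were formed from the Mgst1 levels themselves, so their separation is a description and not a test. The probe was detected in 2 of 3 NZW mice and in 0 of 3 129/svj mice. The mean level was 11.23 ± 0.09 in B6, 11.67 ± 0.26 in BALB/c, 11.83 ± 0.25 in DBA1, 5.56 ± 0.31 in NZW and 4.88 ± 0.20 in 129/svj (log2, SD, n = 3 each).

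In B6 against NZW, Mgst1 differed by 5.67 log2 units (SE 0.18, adjusted p = 1.8e-11, limma with Benjamini-Hochberg adjustment over the 6897 probes tested in all strains). NZW lay near background, with 1 of 3 mice undetected, so the size depends on the background correction: without it the difference was 4.16 (adjusted p = 2.9e-11). DBA1 exceeded 129/svj, the other sensitive strain of its table, by 6.95 log2 units (SE 0.18, adjusted p = 1.9e-12). BALB/c exceeded 129/svj by 6.79 (adjusted p = 1.8e-12, 7.48% of all probes called). BALB/c and DBA1 were not separated: the difference was -0.16 with a 95% interval of -0.55 to 0.24 (adjusted p = 0.70, 9.44% of all probes called). Because 129/svj was not above background on any array, the size there is a bound. The floor for detected signals taken for 129/svj was 5.62 on this background-corrected log2 scale. It does not hold for the other table, where Mgst1 was detected at 5.40 in NZW mouse 1. Against that floor, the Mgst1 signal was at least 66.2-fold higher in BALB/c and at least 73.8-fold higher in DBA1. Without background correction, which leaves background in both strains, DBA1 exceeded 129/svj by 5.14 log2 units, so the bounds hold only for the corrected values. Each of these genes other than Gstm1, Gstm6, Gstp1 and Gstt2 was read by 1 probe, whose sequence was not used here. Whether a probe binds the RNA of every strain alike was not tested, so the fold values describe signal and not amounts of RNA. In whole cortex, fewer cells of a type and less RNA per cell cannot be told apart.

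Gstm7, a gene of the Mu class, whose enzymes act on epoxides and quinones, was high in 1 strain. Its signals were 466, 581 and 378 in NZW and 158, 137 and 148 in B6. In the second table the first arrays gave 199, 195 and 144 in BALB/c, 192, 171 and 181 in DBA1, and 208, 181 and 184 in 129/svj. All 3 NZW mice lay above the other 12 mice, which overlapped one another. NZW was set apart after its levels were seen, so this is a description and not a test. The mean level was 8.41 ± 0.22 in NZW, 6.31 ± 0.28 in 129/svj, 6.29 ± 0.21 in B6, 6.10 ± 0.37 in DBA1 and 5.80 ± 0.45 in BALB/c (log2, SD, n = 3 each), and the probe was dim, with 1 BALB/c mouse below detection. B6 was lower than NZW by 2.12 log2 units (log2 difference -2.12, adjusted p = 1.6e-05), and by -1.33 (adjusted p = 1.7e-06) without background correction. BALB/c differed from the mean of DBA1 and 129/svj by -0.40 (adjusted p = 0.27), and DBA1 from 129/svj by -0.21 (adjusted p = 0.76).

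**Figure D1:**
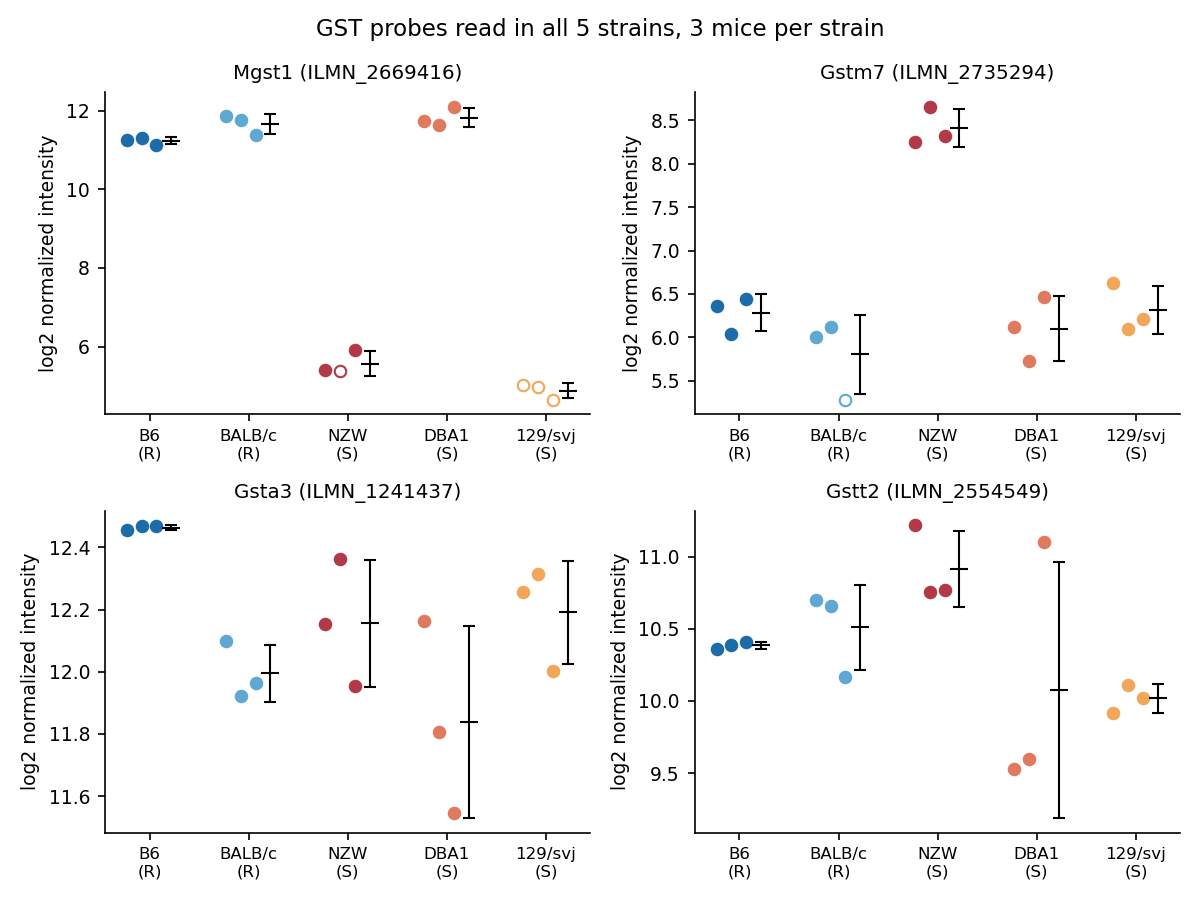
Log2 normalized intensity of the 4 GST probes read in all strains, 1 point per mouse (the mean of its arrays where it had 2), with the mean and SD of 3 mice beside them; R marks resistant and S sensitive strains, and open points are mice in which the probe was not detected. The y axes differ between panels and do not start at 0. Mgst1 stands between 11.1 and 12.1 in B6, BALB/c and DBA1 and below 6 in NZW and 129/svj, and Gstm7 above 8 in NZW alone.

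Gsta3 and Gstt2 showed no such split. Gsta3, an Alpha class gene whose enzyme detoxifies the epoxide of aflatoxin in mice, was bright in all 15 mice, with strain means from 11.84 ± 0.31 in DBA1 to 12.46 ± 0.01 in B6 (log2, SD, n = 3). No comparison between strains passed the test for Gsta3 (B6 against NZW 0.31, adjusted p = 0.29; DBA1 against 129/svj -0.35, adjusted p = 0.27). Gstt2 probe ILMN_2554549, which reads a full-length cDNA clone, had strain means from 10.02 ± 0.10 in 129/svj to 10.91 ± 0.26 in NZW. DBA1 mouse 3, at 11.10, stood apart from the other DBA1 mice at 9.53 and 9.60. The repeat arrays of this probe differed from the first arrays of the same mice by -1.17, -0.71 and -0.43 log2 units in BALB/c, DBA1 and 129/svj, beside a range of strain means of 0.53 within a table. BALB/c exceeded the mean of DBA1 and 129/svj by 0.46 (adjusted p = 0.35), and by 0.72 (adjusted p = 0.0041) without DBA1 mouse 3.

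Set as resistant against sensitive strains, as the mean of both within-table differences, 2 of the 4 probes were called, where 12.0% of all probes tested were. Mgst1 was higher in the resistant strains by 4.49 log2 units (SE 0.12, adjusted p = 5.3e-12). Gstm7 was lower (log2 difference -1.26, SE 0.16, adjusted p = 4.9e-05). Neither call describes every strain: DBA1 is high in Mgst1 among the sensitive strains, and Gstm7 is high in NZW but not in the other sensitive strains. For 0 of the 4 probes did the resistant mice and the sensitive mice fail to overlap, against 0.667% of all probes. Both calls were lost when strain was a random block (Mgst1 4.33, adjusted p = 0.088, and Gstm7 -1.14, adjusted p = 0.061). In that fit 1 correlation between mice of a strain was shared by all probes. It still counted 15 mice, so its p-values are not those of a test on 5 strains. Both calls were also lost in the methods' t-test, which pools mice across the tables, after Benjamini-Hochberg adjustment (Mgst1 adjusted p = 0.30, Gstm7 adjusted p = 0.69).

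The comparisons were also made within each table. In B6 against NZW, 2 of 4 probes were called (9.84% of all probes tested), Mgst1 higher and Gstm7 lower in B6. In BALB/c against DBA1 and 129/svj, 1 of 4 was called (9.66% of all), Mgst1, higher by 3.32 (adjusted p = 2.2e-09), a mean over a difference of -0.16 and one of 6.79. In the methods' t-test, which pools DBA1 with 129/svj, it did not pass (adjusted p = 0.61). In DBA1 against 129/svj, 1 of 4 was called (7.29% of all), again Mgst1. The difference between the BALB/c and the B6 comparison was itself past the test for Gstm7 (1.72, adjusted p = 0.0017), where 10.3% of all probes passed, and not for Gsta3 (-0.33, adjusted p = 0.41). Gstt2 did not pass (0.99, adjusted p = 0.16), but did without DBA1 mouse 3 (1.25, adjusted p = 0.0011) and with scaling to the 75th percentile (1.21, adjusted p = 0.047). For Mgst1 the fitted value was -2.35 (adjusted p = 9.3e-06), but NZW lay near background and 129/svj was not above it. The Mgst1 rows may also be different probes, so no difference between the comparisons is read from that value.

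In B6 and NZW, where all 10 genes were read, 6 of the 14 tested probes were called, in 5 of the 10 genes. This comparison used every detected probe of that table, 16756 in all, of which 18.8% were called. Mgst1 and Gstm4 were higher in B6, and Gstm7, 1 of the Gstm6 probes and both Gstt2 probes were lower. The median difference of the 14 probes was -0.02, beside -0.04 for all probes tested. The B6 and NZW mice did not overlap for 7 of the 14 probes, against 37.3% of all probes tested. On this scale Mgst1 differed by 6.20 (adjusted p = 1.1e-07) and Gstm7 by -2.26 (adjusted p = 2.8e-05).

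**Figure D2:**
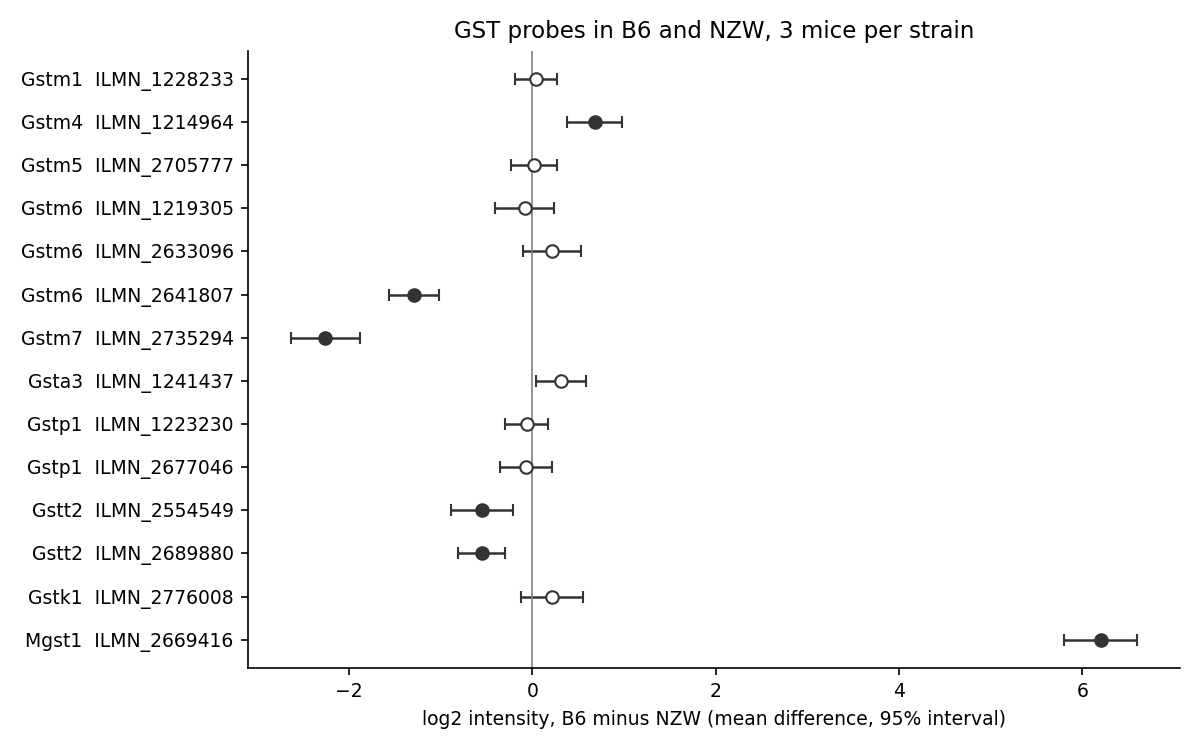
Log2 difference in intensity between B6 and NZW for each tested probe of the 10 GST genes, as the mean difference (point) with its 95% interval (bar), 3 mice per strain; filled points passed an adjusted p below 0.05. Mgst1 at 6.20 and Gstm7 at -2.26 lie farthest from 0, and 8 of the 14 probes did not pass.

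The Mu class genes stand side by side on chromosome 3, and their differences between B6 and NZW ran in both directions. In the RefSeq annotation the order is Gstm5, Gstm7, Gstm6, Gstm3, Gstm2, Gstm1 and Gstm4. Gstm7 and a Gstm6 probe, neighbours in that order, were lower in B6. Gstm4, at one end, was higher in B6. Gstm5 (log2 difference 0.02, 95% interval -0.23 to 0.27, adjusted p = 0.93) and Gstm1 (0.04, -0.19 to 0.27, adjusted p = 0.83) did not pass, although both were bright, with Gstm1 signals of 6366 to 7659 in B6 and 5976 to 8531 in NZW. Their intervals hold no difference above 0.27 log2 units. Gstm2, between Gstm3 and Gstm1, was higher in B6 in both of its probes, by 0.67 (adjusted p = 0.0022) and 1.27 (adjusted p = 0.00015). Gstm3 was not detected in enough mice to be tested.

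Gstm6 was read by 3 probes that disagreed. Probe ILMN_2641807 gave 1929, 2012 and 1681 in B6 and 5870, 4882 and 3900 in NZW, with no overlap. It was lower in B6 (log2 difference -1.29, SE 0.12, adjusted p = 0.00012), from a mean of 12.17 ± 0.17 in NZW to 10.87 ± 0.05 in B6. Probe ILMN_1219305 was dim in both strains, 132 to 180 in B6 and 143 to 166 in NZW, and differed by -0.09 (adjusted p = 0.72). Probe ILMN_2633096 was detected in 2 B6 mice and 1 NZW mouse and differed by 0.21 (adjusted p = 0.34). A probe annotated to LOC433943 and described in the table as similar to Gstm1, which was chosen after its values were seen, was also lower in B6 (log2 difference -1.32, adjusted p = 1e-04). Another chosen in the same way, LOC670888, described as similar to Gstm2, was higher in B6 (0.60, adjusted p = 0.0048). The Mu class genes are close in sequence, and reads of one by the probe of another were not tested.

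Gstm4 was dim, and higher in B6. Its signals were 227, 249 and 192 in B6 and 165, 181 and 141 in NZW. The strains did not overlap, and after normalization stood at 7.30 ± 0.12 in B6 and 6.62 ± 0.20 in NZW (log2 difference 0.68, SE 0.13, adjusted p = 0.0083). In the methods' t-test after adjustment it did not pass (adjusted p = 0.06).

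**Figure D3:**
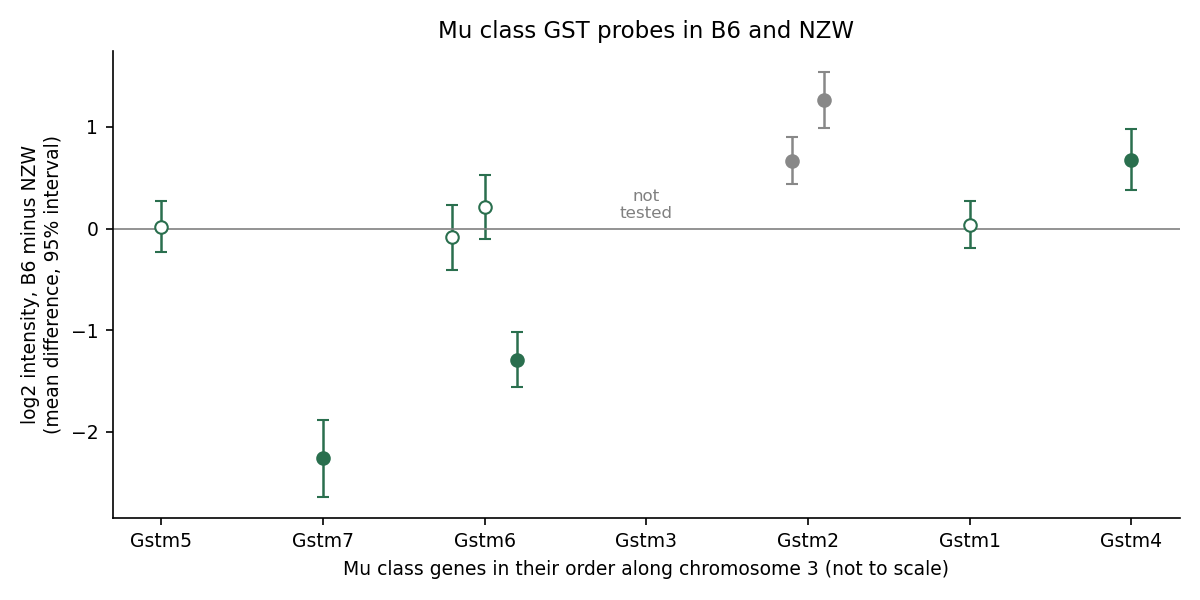
Log2 difference in intensity between B6 and NZW for the Mu class probes, with genes in their order along chromosome 3 (not to scale) and 95% intervals as bars; filled points passed an adjusted p below 0.05, Gstm2 is in grey, and Gstm3 was not tested. Gstm7 and 1 Gstm6 probe lie below 0 and Gstm2 and Gstm4 above it.

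Gstt2, the Theta class gene, whose enzyme acts on organic hydroperoxides and sulfate esters, was lower in B6 in both of its probes. Probe ILMN_2689880 gave 6334, 6817 and 6379 in B6 and 10072, 11344 and 9423 in NZW, with no overlap. The log2 difference was -0.55 (SE 0.11, adjusted p = 0.010). Without B6 mouse 1 it was -0.51 and no longer passed (adjusted p = 0.05). Probe ILMN_2554549 gave 1760, 1792 and 1627 in B6 and 3557, 2615 and 2038 in NZW and also differed by -0.55 (adjusted p = 0.033). In the fit over all 5 strains the second probe did not pass (-0.53, adjusted p = 0.38).

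Gstp1, whose Pi class enzyme also binds the stress kinase JNK, and Gstk1 showed no difference that passed. The Gstp1 probes differed by -0.06 (95% interval -0.30 to 0.17, adjusted p = 0.72) and -0.07 (-0.36 to 0.21, adjusted p = 0.73). Gstk1 differed by 0.22 (-0.13 to 0.56, adjusted p = 0.37), with signals of 2517 to 3014 in B6 and 1950 to 3204 in NZW. Gsta3 differed by 0.31 (0.04 to 0.58, adjusted p = 0.11), and its B6 mice, at 12.90 to 12.94, lay above the NZW mice, at 12.42 to 12.79.

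Other GST genes differed between B6 and NZW as well. Of 12 tested probes in 8 genes, 4 were higher and 1 was lower in B6, and 7 were not called (median 0.15), where 18.8% of all probes tested were called. All 3 Gsta1 probes were higher, by 0.48 to 1.09. The Gsta2 probes disagreed: ILMN_1248849 was higher by 0.70 (adjusted p = 0.022), and ILMN_1248781 lower (log2 difference -2.57, adjusted p = 5.3e-06).

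Among the enzymes that make and reduce glutathione, Glrx1 and Idh1 were higher in B6 by over 2 log2 units. Of 12 tested probes in 9 genes, 4 were higher in B6, 1 was lower and 7 were not called (median 0.12), beside 18.8% called of all probes. Glrx1, the cytosolic glutaredoxin that removes glutathione from protein thiols, was higher by 4.88 (adjusted p = 1e-07). Both probes of Idh1, a cytosolic source of NADPH, were higher, by 2.46 and 2.55 (adjusted p = 2.5e-06 and 6.9e-07). For Gss, glutathione synthetase, 1 probe was higher (0.57, adjusted p = 0.033), 1 lower (-0.61, adjusted p = 0.0057) and 1 did not pass. Glrx1 was also the only 1 of 7 probes of this list called in resistant against sensitive strains (2.26, adjusted p = 2e-06), where 12.0% of all probes were, and it differed by -0.03 (adjusted p = 0.97) in BALB/c against DBA1 and 129/svj.

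The called probes of genes that export and process glutathione conjugates were lower in B6. Of 13 tested probes in 11 genes, 0 were higher, 4 were lower and 9 were not called (median -0.19), beside 18.8% called of all probes, 9.61% lower. The 4 were both probes of Acy1, an aminoacylase (-1.45 and -1.42), Anpep, the brush border aminopeptidase N (-1.10), and Acy3, an aminoacylase that acts on mercapturic acids (-0.81). Ggt1, which takes the first step in breaking down the conjugates, differed by -0.21 (adjusted p = 0.25).

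**Figure D4:**
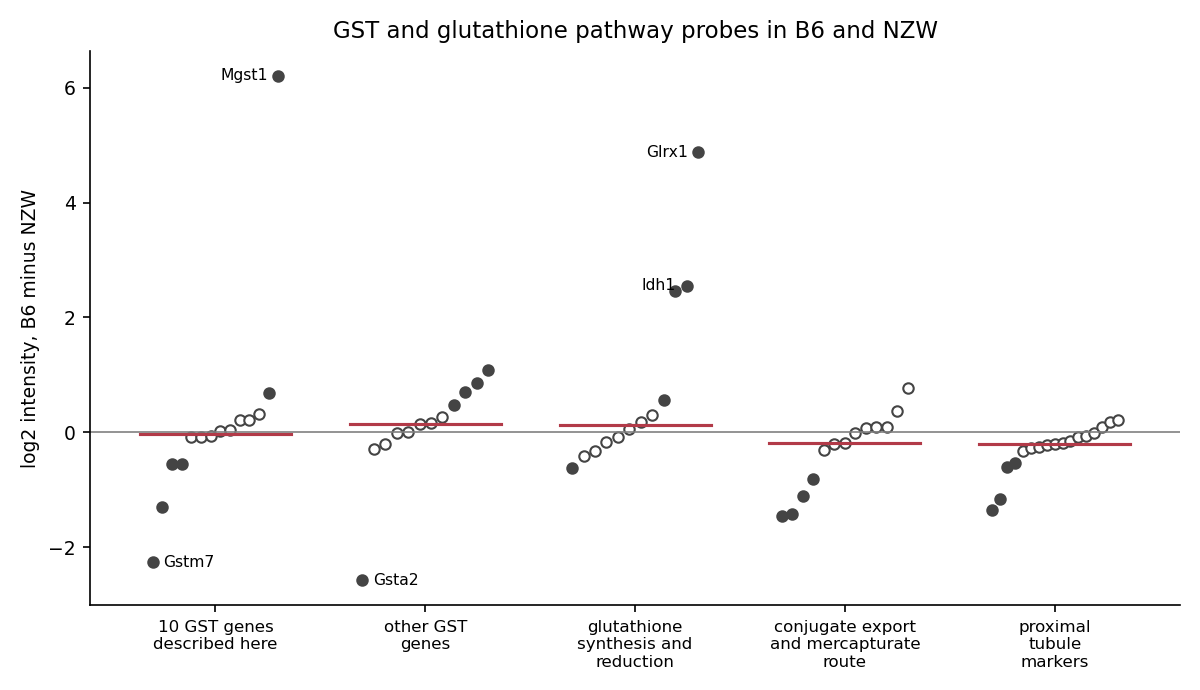
Log2 difference in intensity between B6 and NZW for every tested probe of the 10 GST genes, of the other GST genes, of 2 further lists of the glutathione pathway and of proximal tubule markers; filled points passed an adjusted p below 0.05, red lines are medians, and probes beyond 2 log2 units are named. The medians lie between -0.21 and 0.15, with Mgst1, Glrx1 and Idh1 far above them and a Gsta2 probe and Gstm7 far below.

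Markers of cell types were read in the same comparison, where 18.8% of all probes were called. Of 17 tested proximal tubule probes, 4 were lower in B6, 0 were higher and 13 were not called (median -0.21). Lrp2, which encodes the endocytic receptor megalin (log2 difference -1.16), Slc5a12 (-1.35), Cubn (-0.60) and 1 Aqp1 probe (-0.53) were lower, while the other Lrp2 probe differed by -0.16 (adjusted p = 0.43). The summed proximal tubule signal was 16.70 to 16.84 in the B6 mice and 16.87 to 16.98 in the NZW mice on the log2 scale, with the highest signal from a probe of Slc27a2, a fatty acid transporter. Macrophage markers were higher in 1 of 9 probes (C1qb, 1.02) with a median of 0.50, and their summed signal was 11.75 to 12.66 in B6 and 11.34 to 11.67 in NZW, with the highest signal from the Lyzs probe. Of 7 tubule injury probes 2 were higher (Lcn2 and Spp1) and 3 lower (Havcr1, Krt18 and Krt8). Of 6 podocyte probes 2 were lower in B6, and of 6 distal tubule probes 2 were higher and 1 was lower. Of 12 red blood cell probes 3 were higher. Tested probes of T cells (4), B cells (1), neutrophils (4), endothelium (7), the loop of Henle (5) and the collecting duct (4) gave no call. In BALB/c against DBA1 and 129/svj, the macrophage marker Cd14 was lower (log2 difference -2.04, adjusted p = 0.0053) and 2 of 6 proximal tubule probes (Lrp2 and Slc5a12), 2 of 4 collecting duct probes (Aqp2 and Scnn1g) and the distal tubule marker Pvalb (2.17, adjusted p = 0.024) were higher, where 9.66% of all probes were called. Among the sensitive strains Cd14 was higher in DBA1 than in 129/svj (1.76, adjusted p = 0.04) and Pvalb lower (log2 difference -2.39, adjusted p = 0.036). The other distal tubule marker tested, Slc12a3, differed by 0.04 (adjusted p = 0.95) in BALB/c against DBA1 and 129/svj. Between DBA1 and 129/svj Slc12a3 differed by 0.16 (adjusted p = 0.86). The other macrophage probe tested was called in neither comparison. The part of these markers in the GST differences was not tested.

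Several genes followed the strain pattern of Mgst1 or Gstm7 over the 15 mice after the mean of each table was subtracted. For Mgst1 the nearest were 4933427D14Rik (Pearson r = 0.992), Spink8 (0.990) and Cops8 (0.985). For Gstm7 they were 0610040A22Rik (0.955), Itpka (0.946) and Gfer (0.945). The mice of a strain share a genotype and the mice of a table share their processing, so these values describe 5 strain means more than 15 points.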

How the data were processed

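Kidney cortex RNA of 15 mice was labelled as biotin cRNA (Ambion MessageAmp) and read on Illumina Mouse WG-6 v1 arrays. The authors deposited probe intensities from BeadStudio and detection p-values for 18 arrays in 2 tables. The deposited values are labelled as non-normalized. Background correction before deposit, and the day of sampling, are not given in the sources used here. The 4 member probes and all others present in both tables (19887 pairs, by search key except for Mgst1) were background-corrected (limma nec, normexp from detection p-values, offset 16), quantile normalized together and set to log2. Repeat arrays were averaged, and probes detected in at least 3 mice were kept. Control rows (14) were left out and 11 rows sharing a probe ID were averaged.

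Strains were fitted as 1 coefficient each (lmFit and eBayes, limma 3.58.1, R 4.3.3) and called at an adjusted p below 0.05 after Benjamini-Hochberg adjustment over all probes tested, 6897 in all strains and 16756 in B6 and NZW alone. That table was normalized and fitted on its own for all its probes. The methods' t-test is Student's test of each probe on the same values, and for resistant against sensitive strains it pools mice across the tables. The fits were tested on simulated data. The p-values measure the spread between mice of a strain. Alternatives were other background corrections, scalings, filters and variance models, a replicate block, a random strain block, first arrays only and leaving out each mouse. Bead-level variation of detected member values was 1.82 to 9.69% (CV, 13 to 66 beads).

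Every probe of the 10 genes is described, those never detected as a count. List probes are given as counts with the most changed named by adjusted p; where further probes of a named gene, and Ggt1, are given, they were chosen after their values were seen. The 3 probes most like the 2 members of widest strain range are named. The members and lists were chosen with earlier results of these data known. Promoter windows came from RefSeq (GRCm38.p6), and the arrays' build is not named, so no probe coordinates are given.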

Additional observations from a re-analysis of the deposited data

Results flagged for a closer look

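The comparison of BALB/c with DBA1 and 129/svj and that of B6 with NZW were set against each other in a test of the difference itself (limma, Benjamini-Hochberg adjustment). For Gstm7 the difference between them was 1.72 log2 units (adjusted p = 0.0017), from -0.40 in BALB/c and -2.12 in B6. For Mgst1 the fitted value was -2.35 (adjusted p = 9.3e-06), from 3.32 in BALB/c and 5.67 in B6. The mean of 129/svj (4.88) lay under the floor taken for that strain (5.62). The mean of NZW (5.56) lay near background, with the probe detected in 2 of 3 mice. The Mgst1 rows of the separate tables may also be different probes. The fitted value is therefore set in part by background and is not read as a difference between the comparisons. Strain and table cannot be told apart in these values.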

How the results depend on the processing

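The calls for Mgst1 and Gstm7 in B6 against NZW, for Mgst1 in DBA1 against 129/svj, and for Gstm7 in the difference between the comparisons kept their direction under every alternative that tested them. With only probes detected in every mouse, Mgst1 and Gstm7 were no longer tested, and the number of calls fell to 0 in each comparison over all strains. In resistant against sensitive strains, 0 of 4 probes were called with a random block for strain, where the calls over all 6897 probes fell from 827 to 107. The methods' t-test called 0 there after adjustment (32 of all probes) and 1 at its unadjusted p (617 of all probes). In BALB/c against DBA1 and 129/svj it called 0 either way (Mgst1 adjusted p = 0.61, unadjusted p = 0.19). Leaving out 1 mouse at a time gave 1 to 2 calls there, 2 without DBA1 mouse 3.

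Signs turned only for probes that did not pass. Gstt2 probe ILMN_2554549 in resistant against sensitive strains was 0.017 with first arrays only, 0.038 with a random strain block and 0.11 in the methods' t-test, and it ranged from -0.10 to 0.095 with single mice left out (above 0 without BALB/c mouse 3, DBA1 mouse 3 or NZW mouse 1). In DBA1 against 129/svj it ranged from -0.45 (without DBA1 mouse 3) to 0.33. Gsta3 in BALB/c against the other strains ranged from -0.093 to 0.061 (above 0 without BALB/c mouse 2, DBA1 mouse 1 or 129/svj mouse 2). In B6 against NZW, scaling to the 75th percentile turned Gstm1 to -0.15 and Gstm5 to -0.17, where the median of all probes was -0.13. With single mice left out, Gstm5 ranged from -0.051 to 0.081 (below 0 without NZW mouse 3 or B6 mouse 1), and the dim Gstm6 probe ILMN_1219305 from -0.23 to 0.00096 (above 0 without B6 mouse 3). The causes were not tested. Without background correction the differences were smaller and stayed called: in resistant against sensitive strains Gstm7 -0.75 and Mgst1 3.29 (adjusted p = 1e-05 and 3.7e-12), in B6 against NZW Gstm7 -1.33 and Mgst1 4.16, and in DBA1 against 129/svj Mgst1 5.14. Gstt2 probe ILMN_2554549 passed in B6 against NZW without DBA1 mouse 3 (adjusted p = 0.043), as did its difference between the comparisons.

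The labels number the mice of each strain alike. Correlations of the deviations of same-numbered mice from their strain means ranged from -0.22 to 0.36 within a table and from -0.22 to 0.05 between tables. Only for DBA1 and 129/svj were all 3 above 0.1 (0.17, 0.103 and 0.36), though DBA1 mouse 1 correlated more with 129/svj mouse 2 (0.28). With the block, Mgst1 differed between these strains by 6.95 (adjusted p = 1.7e-10), called as without it. With the replicate number as a block 2, 1, 2, 1 and 2 probes were called in resistant against sensitive, BALB/c, B6, DBA1 and the difference, and 3 without a counterpart, as without the block. Dim probes (Gstm7, Gstm4, the lower Gstm6 probes, Mgst1 in NZW and 129/svj) lie where background sets much of the value.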
